A study of Mus musculus with 36 samples.

Results

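DN2Kit+ thymocytes were compared with LSKFlt3hi IL7R+ progenitors of the bone marrow on expression arrays, over every gene that a probe set names alone. The comparison rests on 6 of the 36 arrays of the series, 3 for each population, taken by their sample titles and kept to the first of 2 sets of arrays that differ in their labels and in their overall level. The DN2Kit+ cells came from thymus and are labelled as early thymic progenitors. The LSKFlt3hi IL7R+ cells came from bone marrow and are labelled as thymic seeding progenitors. All 6 arrays carry the strain C57BL6, an age of 1 week and a sex entry of Male/Female, and their labels give no treatment and no engineered allele. Each sample is described as a pool from several mice, so the p-values measure the spread between pools. Tissue and population changed together, so the effect of the organ and that of the stage cannot be told apart. Arrays of ETPFlt3hi thymocytes, a stage that textbook schemes place before DN2, of DN3 thymocytes and of marrow LSKFlt3-CD48-CD150+ cells, a gate conventionally used for stem cells, 3 each from the same set, served as landmarks and shared the estimate of the spread.

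T cells are made in the thymus from progenitors that arrive from the bone marrow in the blood. A marrow progenitor of the LSK gate (no mature lineage antigen, Sca-1 and Kit on the surface) with abundant Flt3 receptor and the interleukin-7 receptor is already primed for lymphoid fates. Inside the thymus Notch signals take it through the early thymic progenitor stage to the DN2 stage, at which the interleukin-2 receptor alpha chain CD25 appears on cells that still carry Kit. During DN2 the cells begin to make parts of the T cell receptor complex and lose the ability to become myeloid or B cells, and at DN3 they rearrange the T cell receptor beta gene.

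Levels are log2 values after robust multi-array averaging, so a difference of 1 is 2-fold. A call required a limma adjusted p below 0.05 together with a change of 1 or more on that scale. Of 18193 genes 821 were called (4.51%), 355 of them higher in DN2Kit+ cells (1.95%) and 466 lower (2.56%). Of these, 33 were at least 16-fold higher and 34 at least 16-fold lower. In each of the 821 genes the 3 DN2Kit+ arrays lay on one side of the 3 LSKFlt3hi IL7R+ arrays, a separation that 26.7% of all genes showed. The median difference over all genes was 0.00. Arrays of the same population correlated at 0.987 or more among DN2Kit+ and 0.978 or more among LSKFlt3hi IL7R+, against 0.951 to 0.962 between the populations. In bulk samples such as these, fewer cells of a type and less RNA per cell cannot be told apart.

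**Figure D1:**
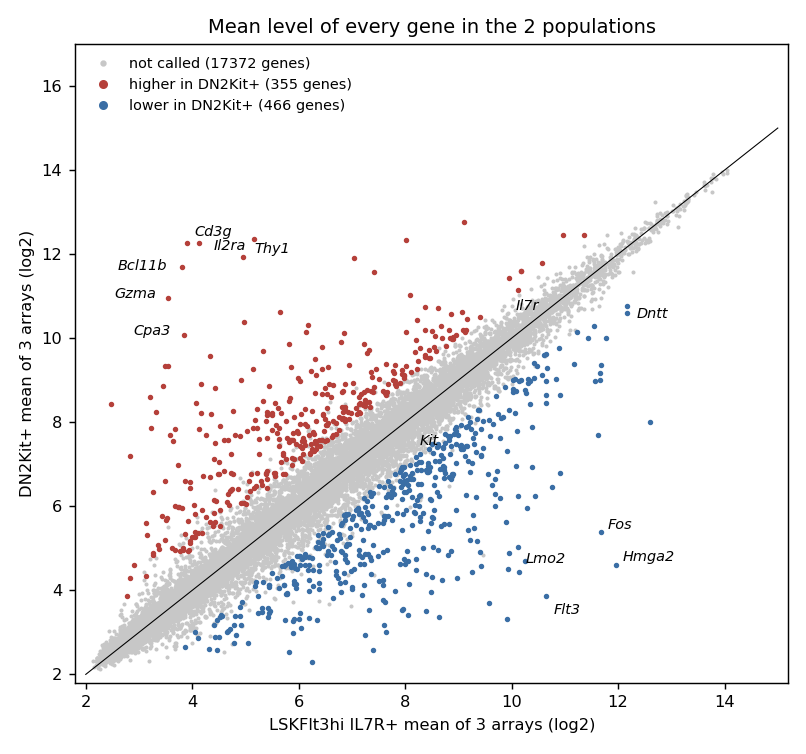
Mean log2 level of 18193 genes over 3 DN2Kit+ arrays (vertical axis) against 3 LSKFlt3hi IL7R+ arrays (horizontal axis), with the line of equal levels. Red points are the 355 genes called higher and blue points the 466 called lower in DN2Kit+ cells; Cd3g, Il2ra, Bcl11b and Gzma stand farthest above the line, and Hmga2, Flt3 and Fos far below it.

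The sorting labels were first set against the transcripts of their antigens. Flt3, the receptor whose high level defines the marrow gate, measured 4.47, 3.46 and 3.68 on the DN2Kit+ arrays, against 10.50, 10.62 and 10.85 on the LSKFlt3hi IL7R+ arrays. Every DN2Kit+ value lay far below every marrow value, a difference of -6.79 ± 0.29 (SE; adjusted p 6.06e-09), which the gate itself selects. Il2ra, which encodes CD25, measured 12.24, 12.20 and 12.36 in DN2Kit+ cells, against 4.03, 4.08 and 4.29 in LSKFlt3hi IL7R+ cells. It rose by 8.13 ± 0.20 (SE; adjusted p 2.01e-11), and CD25 is the antigen that textbook gates use for the DN2 stage. Kit transcript was 7.75, 7.42 and 7.74 in DN2Kit+ cells, against 7.86, 8.05 and 8.30 in marrow cells, and did not pass the test (difference -0.43, adjusted p 0.166). Il7r was 10.46, 10.45 and 10.56 in DN2Kit+ cells and 10.19, 9.77 and 9.73 in marrow cells, also without passing it (difference 0.59, adjusted p 0.105). Cd44, the adhesion receptor whose loss marks the end of DN2, was lower in DN2Kit+ cells by 2.17 on the log2 scale (adjusted p 0.000531). Flt3 and Il2ra transcripts thus differed in the direction of the gates, and both populations carried Kit and Il7r transcript. No probe set that names 1 gene measured Ly6a (Sca-1), Tcf7 or Lck here.

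**Figure D2:**
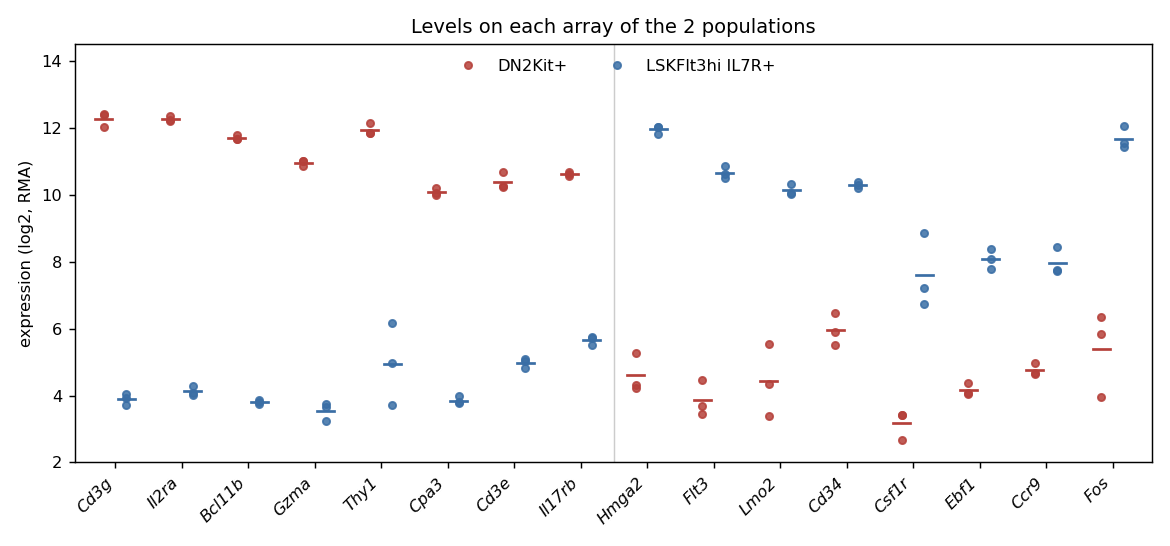
Log2 level of 16 genes on each array, with 3 DN2Kit+ arrays (red, left) and 3 LSKFlt3hi IL7R+ arrays (blue, right) per gene and a bar at each mean. The 8 genes on the left rose and the 8 on the right fell in DN2Kit+ cells, and in each of the 16 genes no DN2Kit+ point reaches the marrow points.

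The genes below are grouped by function into lists. Of 461 measured members of these lists 121 were called, 45 higher and 76 lower, against 4.51% of all genes. The lists were chosen with earlier results of these data known and include the sorting antigens, so their larger share is no independent result. Most genes of the T cell receptor complex and the T cell surface rose. Of 15 measured members 9 rose, 0 fell and 6 were not called, with a median difference of 1.26 over the 15. Cd3g, the gamma chain of the CD3 signalling complex, had the largest rise of all genes: 12.03, 12.37 and 12.42 on the DN2Kit+ arrays, against 4.05, 3.73 and 3.93 on the marrow arrays (difference 8.37 ± 0.21, SE; adjusted p 2.62e-11). Cd3e, the epsilon chain, measured 10.22, 10.67 and 10.25 in DN2Kit+ cells, against 4.83, 5.08 and 5.03 in marrow cells (difference 5.40 ± 0.20, SE; adjusted p 1.09e-09). Both chains were thus below the median level of the arrays (5.12 to 5.22) in LSKFlt3hi IL7R+ cells and high in DN2Kit+ cells. Cd3d, the delta chain, rose less, with 7.88, 8.67 and 8.04 in DN2Kit+ cells, against 4.45, 3.93 and 4.70 in marrow cells (difference 3.84, adjusted p 2.43e-07). Ptcra, the surrogate alpha chain of the pre-T cell receptor, stood at 7.09, 7.89 and 8.53 in DN2Kit+ cells, against 3.49, 3.68 and 3.87 in marrow cells (difference 4.16, adjusted p 1.07e-06). The DN3 means of Cd3d and Ptcra were 11.93 and 11.59, and DN3 minus DN2Kit+ was 3.73 and 3.75 (adjusted p 1.16e-06 and 7.96e-06). For Cd3g that difference was 0.43 (adjusted p 0.348).

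The RefSeq promoter windows of these 4 receptor-complex genes (GRCm38.p6, 250 bases before to 50 after the listed start, minus or plus strand as given) are shown because their transcripts rose together. Capitals mark matches on either strand to CAGCTG (a form of the E box), to AGATAA (bound by the zinc finger factor Gata3 and its relatives), to CTTTGA (the Tcf7 and Lef1 family) and to TGGGAA (the core of RBPJ, the DNA-binding partner of Notch). TGTGGT (Runx) was searched too, and other forms of the E box were not.
Cd3g, chr9:44980382-44980681, minus strand: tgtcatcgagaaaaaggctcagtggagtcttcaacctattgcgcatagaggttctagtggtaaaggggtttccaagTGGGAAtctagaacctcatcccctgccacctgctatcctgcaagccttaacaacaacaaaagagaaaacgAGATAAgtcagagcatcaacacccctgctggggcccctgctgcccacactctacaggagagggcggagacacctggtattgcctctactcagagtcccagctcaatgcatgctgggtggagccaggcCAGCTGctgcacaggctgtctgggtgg
Cd3d, chr9:44981536-44981835, plus strand: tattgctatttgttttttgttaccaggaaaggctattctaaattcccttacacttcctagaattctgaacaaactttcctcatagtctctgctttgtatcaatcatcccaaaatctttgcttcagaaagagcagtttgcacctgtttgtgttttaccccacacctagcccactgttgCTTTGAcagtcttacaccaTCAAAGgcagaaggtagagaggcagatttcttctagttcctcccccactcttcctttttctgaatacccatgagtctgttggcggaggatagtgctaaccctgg
Cd3e, chr9:45009562-45009861, minus strand: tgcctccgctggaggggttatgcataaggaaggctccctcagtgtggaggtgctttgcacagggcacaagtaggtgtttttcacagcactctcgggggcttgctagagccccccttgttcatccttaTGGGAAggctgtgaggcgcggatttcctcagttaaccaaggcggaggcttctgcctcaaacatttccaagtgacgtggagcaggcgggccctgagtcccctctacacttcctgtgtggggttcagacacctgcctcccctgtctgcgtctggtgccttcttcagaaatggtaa
Ptcra, chr17:46763663-46763962, minus strand: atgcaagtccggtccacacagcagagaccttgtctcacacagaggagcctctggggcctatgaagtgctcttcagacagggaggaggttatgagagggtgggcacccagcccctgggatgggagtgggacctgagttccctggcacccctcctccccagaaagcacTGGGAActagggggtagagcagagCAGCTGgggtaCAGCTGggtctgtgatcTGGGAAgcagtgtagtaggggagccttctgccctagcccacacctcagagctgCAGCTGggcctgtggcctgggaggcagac
Cd3g and Cd3d start 1355 bases apart and are read away from each other. CAGCTG occurs 3 times in the Ptcra window and once in that of Cd3g, and 16.3% of 32851 RefSeq promoter windows of this length hold it. The Cd3d window has 2 matches to CTTTGA, 1 on each strand (16% of all windows). AGATAA is found in the Cd3g window alone of the 4 (11.2% of all windows), and TGGGAA in 3 of the 4 (25.6% of all windows). TGTGGT matched in 0 of the 4 windows (16.8% of all windows). No 2 of these motifs overlap in the windows shown. A match is a run of letters and is no evidence of binding.

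Thy1, a surface glycoprotein carried by thymocytes, measured 11.84, 12.14 and 11.85 in DN2Kit+ cells, against 4.98, 6.16 and 3.72 in marrow cells. The marrow arrays spread over more than 2 log2 units, yet all lay far below the DN2Kit+ arrays (difference 6.99 ± 0.45, SE; adjusted p 3.27e-07). Trat1, a receptor-associated adaptor, rose by 4.39, and Ly6d, a surface antigen of lymphoid cells, by 2.82. The remaining called members, Cd96 and Cd5, rose by 1.26 and 1.19. Cd27, a co-stimulatory receptor, differed by -0.74 (adjusted p 0.0228), short of the 2-fold threshold, and Cd2, Cd6 and Cd7 differed by at most 0.28. Cd28, another co-stimulatory receptor, measured 4.84, 5.67 and 6.11 in DN2Kit+ cells, against 5.59, 6.74 and 8.17 in marrow cells (difference -1.30, adjusted p 0.572). The zeta chain Cd247 depended on the probe set. Its brightest probe set gave 9.73, 9.69 and 9.85 in DN2Kit+ cells, against 9.56, 9.90 and 9.62 in marrow cells, and was not called. Of its 3 other probe sets, 2 were called higher, by 2.65 and 2.04.

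T cell signalling molecules rose too, with 9 of 16 measured members higher, 0 lower and a median difference of 1.28. Themis, which sets the strength of T cell receptor signals, measured 9.33, 9.39 and 9.33 in DN2Kit+ cells, against 3.84, 3.51 and 3.26 in marrow cells (difference 5.81 ± 0.16, SE; adjusted p 8.38e-11). Rasgrp1, which activates Ras below the receptor, measured 8.59, 8.22 and 8.16 in DN2Kit+ cells, against 4.75, 5.30 and 5.62 in marrow cells (difference 3.09 ± 0.26, SE; adjusted p 5.19e-06). The adaptors Skap1, Lcp2 (SLP-76) and Lat rose by 2.67, 2.26 and 2.14. Sh2d1a, Ubash3a, Prkch and Prkcq, which tune receptor signals, rose by 1.06 to 2.33, and the call of Prkcq was lost without LSKFlt3hi IL7R+ array 2 (0.92).

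Among 21 transcription factors tied to T cell commitment 5 rose and 0 fell, and the median difference was 0.35. Bcl11b, the zinc finger factor that T cell commitment requires, measured 11.67, 11.77 and 11.68 in DN2Kit+ cells, against 3.82, 3.75 and 3.86 in marrow cells. The arrays of each population lay close together and far from the others, with a difference of 7.89 ± 0.17 (SE; adjusted p 1.04e-11). Gata3 measured 7.83, 7.75 and 7.51 in DN2Kit+ cells, against 4.12, 4.93 and 3.75 in marrow cells (difference 3.43 ± 0.42, SE; adjusted p 0.00016). Ikzf2 (Helios) rose by 2.35. Tox and Lef1 rose by 1.28 and 1.02, and both calls hung on single arrays. That of Tox was lost without any 1 of the 3 DN2Kit+ arrays, LSKFlt3hi IL7R+ arrays 1 and 3 or ETPFlt3hi array 1, and that of Lef1 without DN2Kit+ array 2 or 3 or LSKFlt3hi IL7R+ array 3. The count was 3 of 21 without LSKFlt3hi IL7R+ array 3, DN2Kit+ array 2 or DN2Kit+ array 3. Without both LSKFlt3hi IL7R+ arrays 1 and 3, on which late granulocyte transcripts were raised, Tox differed by 0.36 and Lef1 by 0.92. Bcl11b was thus the only factor of the list that changed by more than 16-fold.

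In the Notch list 3 of 22 measured members rose and 1 fell, with a median difference of -0.04. Deptor, an inhibitor of mTOR, measured 10.27, 10.34 and 10.35 in DN2Kit+ cells, against 6.66, 6.23 and 5.64 in LSKFlt3hi IL7R+ cells (difference 4.14 ± 0.27, SE; adjusted p 3.3e-07). Its mean was 9.32 in LSKFlt3-CD48-CD150+ cells, also from marrow, 9.24 in ETPFlt3hi and 8.40 in DN3 cells. Notch3, a receptor that Notch signals induce in thymocytes, measured 7.58, 7.92 and 7.61 in DN2Kit+ cells, against 4.75, 5.03 and 4.60 in marrow cells (difference 2.91 ± 0.31, SE; adjusted p 4.5e-05). Nrarp, a feedback regulator of Notch, rose by 1.71. Dtx4, a Deltex ubiquitin ligase, fell by 2.20 on the log2 scale. The other 18 members, Notch1, Hes1 and Dtx1 among them, were not called: their differences were 0.37, 0.65 and 0.61.

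Genes of V(D)J recombination, the cutting and joining of antigen receptor segments, showed 1 rise and 1 fall among 10 measured members. Lig4, the DNA ligase that seals the joints, measured 7.89, 8.45 and 8.34 in DN2Kit+ cells, against 5.40, 3.98 and 3.12 in marrow cells (difference 4.06 ± 0.44, SE; adjusted p 5.31e-05). Dntt, which adds untemplated bases at the joints, was high in both, at 10.35, 11.13 and 10.35 in DN2Kit+ cells, against 12.17, 12.33 and 12.02 in marrow cells. Its fall of 1.57 on the log2 scale (adjusted p 0.0169) was lost without LSKFlt3hi IL7R+ array 2 or without DN2Kit+ array 1 or 3 (adjusted p 0.0631 to 0.0753). Rag1, which makes the cut with Rag2, measured 9.38, 9.75 and 9.78 in DN2Kit+ cells, against 9.71, 9.44 and 9.30 in marrow cells. The arrays of the 2 populations overlapped (difference 0.16, adjusted p 0.793).

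T cell receptor gamma transcripts were among the largest rises, and segments of this family share sequence, so the probe sets may not tell them apart. The probe set for Trgv4 measured 12.41, 12.31 and 12.34 in DN2Kit+ cells, against 4.92, 5.43 and 5.12 in marrow cells (difference 7.20 ± 0.16, SE; adjusted p 1.04e-11), and that for Trgv1 9.25, 9.64 and 9.10 in DN2Kit+ cells, against 3.60, 3.40 and 3.46 in marrow cells (difference 5.84 ± 0.17, SE; adjusted p 9.55e-11). In the gamma delta list 3 of 10 measured members rose, the third being Cd163l1 with a difference of 1.19 that fell short without DN2Kit+ array 2 or LSKFlt3hi IL7R+ array 3, and Etv5 fell by 3.49 on the log2 scale. Among double-positive thymocyte genes 3 of 10 rose: Tcra, the receptor alpha chain, by 2.34, the water channel Aqp11 by 1.99 and Arpp21 by 1.43.

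Of 26 receptors and feedback genes for cytokines 3 rose and 6 fell. Besides Il2ra, Il17rb, the interleukin-25 receptor chain, measured 10.67, 10.63 and 10.57 in DN2Kit+ cells, against 5.70, 5.75 and 5.52 in marrow cells (difference 4.96 ± 0.46, SE; adjusted p 1.14e-05). The third, Il12rb2, rose by 1.26, a call lost without DN2Kit+ array 2 or 3 or LSKFlt3hi IL7R+ array 3. Receptor chains of the inflammatory and myeloid cytokines fell: Csf2rb, the shared chain of the GM-CSF, interleukin-3 and interleukin-5 receptors, by 3.29, Il18rap by 2.79, Il6ra by 2.68, Il1r1 by 2.40 and the shared interleukin-6 family chain Il6st by 1.69 on the log2 scale. Socs3, a feedback inhibitor of these receptors, fell by 2.30, a call lost without DN2Kit+ array 1 or LSKFlt3hi IL7R+ array 2 or 3.

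A few genes of cytotoxic and mast cells stood among the largest rises. Gzma, granzyme A, a protease of killer cell granules, measured 10.99, 10.86 and 11 in DN2Kit+ cells, against 3.75, 3.66 and 3.24 in marrow cells (difference 7.40 ± 0.28, SE; adjusted p 1.44e-09). Cpa3, carboxypeptidase A3, known from mast cell granules, measured 10.06, 9.98 and 10.20 in DN2Kit+ cells, against 3.78, 3.98 and 3.79 in marrow cells (difference 6.23 ± 0.28, SE; adjusted p 1.01e-08). DN3 minus DN2Kit+ was 0.20 for Gzma (adjusted p 0.792) and -5.61 for Cpa3 (adjusted p 7.45e-08). Of 26 measured cytotoxic, natural killer and innate lymphoid genes 3 rose and 2 fell, with a median difference of 0.10. Fasl, the ligand of the death receptor Fas, measured 5.87, 6.93 and 6.99 in DN2Kit+ cells, against 3.69, 3.45 and 3.33 in marrow cells (difference 3.10 ± 0.32, SE; adjusted p 3.17e-05), and Nkg7 rose by 1.48. Nfil3, a factor natural killer cells need, fell by 3.15, and Klrd1 by 1.71, on the log2 scale. The defining natural killer genes Ncr1, Eomes and Tbx21 averaged 2.96, 3.25 and 3.02 in DN2Kit+ cells, near the bottom of the arrays' range, and Prf1, perforin, was not called (difference -0.02, adjusted p 0.983).

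The other genes among the 15 largest rises were Mpzl2, an adhesion molecule of the thymus epithelium and other tissues (5.96), Nebl, a nebulin-related actin-binding protein (5.42), Khdc1a (5.40) and Endou, an endoribonuclease (5.25). All 4 were called, with adjusted p between 1.04e-09 and 3.3e-07. Khdc1a belongs to a family of near-identical copies and its probe set may detect more than 1 of them. In DN3 cells their means were 9.88, 9.65, 8.35 and 10.43.

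Progenitor genes were lower in DN2Kit+ cells. Of 17 measured progenitor surface antigens 9 fell and 1 rose, with a median difference of -1.0. Cd34, the sialomucin of stem and progenitor cells, measured 6.47, 5.52 and 5.89 in DN2Kit+ cells, against 10.28, 10.21 and 10.37 in marrow cells (difference -4.32 ± 0.26, SE; adjusted p 1.57e-07). Csf1r, the receptor for macrophage colony-stimulating factor, measured 2.68, 3.43 and 3.41 in DN2Kit+ cells, against 8.84, 6.73 and 7.22 in marrow cells. The marrow arrays spread over more than 2 log2 units, with array 1 highest, and none came near the DN2Kit+ arrays (difference -4.42 ± 0.79, SE; adjusted p 0.00319). Cd33 fell by 3.48, the endothelial and stem cell sialomucin Emcn by 3.06 and Cd93 by 1.43 on the log2 scale. The 1 rise, Prom1, was 4.21, 5.32 and 6.10 in DN2Kit+ cells, against 4.03, 3.05 and 3.38 in marrow cells, and was lost without DN2Kit+ array 2 or 3 or LSKFlt3hi IL7R+ array 2 or 3, and with a replicate block (adjusted p 0.0674).

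Of 27 measured transcription factors of stem cells and progenitors 15 fell and 2 rose, with a median difference of -1.19. Hmga2, a chromatin protein of fetal and neonatal stem cells, had the largest fall of all genes: 4.32, 4.23 and 5.27 in DN2Kit+ cells, against 11.82, 12.02 and 12.03 in marrow cells (difference -7.35 ± 0.23, SE; adjusted p 1.74e-10). Lmo2, a LIM-domain partner of Tal1, measured 5.55, 4.35 and 3.38 in DN2Kit+ cells, against 10.32, 10.04 and 10.03 in marrow cells (difference -5.70 ± 0.38, SE; adjusted p 4.29e-07). DN2Kit+ arrays differed among themselves in Lmo2 by more than 2 log2 units, whereas the marrow arrays lay within 0.3. Mef2c, a lymphoid and myeloid factor, fell by 4.11, the homeobox factors Hoxa9 and Meis1 by 3.13 and 2.78, Mecom by 2.62, the myeloid factor Cebpa by 2.45 and Bcl11a by 1.92 on the log2 scale. Spi1 (PU.1), which commitment to the T lineage has to silence, measured 6.21, 6.47 and 6.71 in DN2Kit+ cells, against 7.44, 8.42 and 7.93 in marrow cells (difference -1.47, adjusted p 0.034), and was lost when any of DN2Kit+ arrays 1, 2 and 3 or LSKFlt3hi IL7R+ arrays 2 and 3 was left out (adjusted p 0.0637 to 0.137). Gfi1, a repressor, and Nfe2, known from megakaryocytes, went the other way, with differences of 1.38 and 1.17; the call of Nfe2 was lost without LSKFlt3hi IL7R+ array 3. In the fetal and neonatal list Hmga2 was the only one of 10 measured members that was called, and the list's median was -0.12. Tal1 and Tcf4, of the E proteins and their inhibitors, fell by 1.19 and 2.0, 2 of 9 measured.

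Myeloid progenitor genes fell in 11 of 22 measured cases and rose in 0 (median -1.13). Without LSKFlt3hi IL7R+ arrays 1 and 3, on which late granulocyte transcripts were raised, 1 marrow array is left. In that fit Mpo differed by -3.89, Irf8 by -1.95 and Lyz2 by -1.56. These are sizes alone and do not show that the calls held. Klf4 measured 5.63, 3.90 and 4.21 in DN2Kit+ cells, against 8.80, 9.42 and 10.05 in marrow cells (difference -4.84 ± 0.65, SE; adjusted p 0.000336). Mpo, myeloperoxidase, measured 7.83, 7.65 and 7.63 in DN2Kit+ cells, against 11.56, 11.59 and 11.73 in marrow cells. The arrays of the 2 populations lay far apart, and the test, whose spread is shared with the other populations, gave a wide error (difference -3.92 ± 1.0, SE; adjusted p 0.0326), and the call was lost when any 1 of the 6 arrays was left out (adjusted p 0.0742 to 0.102). Irf8 fell by 2.01 and Lyz2 by 1.95, and Lyz1, a near-identical copy of Lyz2, by 1.78.

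Late granulocyte transcripts differed between the marrow arrays themselves. The mean level over 15 such genes was 3.93, 3.80 and 3.84 on the DN2Kit+ arrays, against 5.93, 4.07 and 5.29 on LSKFlt3hi IL7R+ arrays 1, 2 and 3. S100a9 measured 4.76, 4.85 and 4.95 in DN2Kit+ cells, against 11.81, 5.76 and 10.83 in marrow cells, and was not called (adjusted p 0.0616). It was called under 5 of 22 alternatives, among them without marrow array 2 (-6.47, adjusted p 0.00203). Of the 15, 1 was called lower, Ltf (-1.85), and that call was lost without any 1 of the 3 DN2Kit+ arrays or LSKFlt3hi IL7R+ arrays 1 and 3 (without array 1 -1.36, adjusted p 0.105). Without marrow array 2, on which these transcripts were lowest, 7 of the 15 were called lower. Slc4a1, the red cell anion exchanger, was 4.25, 3.84 and 4.0 on the DN2Kit+ arrays, against 9.24, 4.91 and 6.85 on the marrow arrays, highest on marrow array 1. Its fall was lost when any 1 of the 9 DN2Kit+, ETPFlt3hi and LSKFlt3hi IL7R+ arrays other than marrow array 2 was left out (without marrow array 1 -1.85, adjusted p 0.0997), and with a replicate block (adjusted p 0.0574). Cd163, the 1 called gene of 11 macrophage genes, was lost without any 1 of the 3 DN2Kit+ arrays or marrow array 1 (without marrow array 1 -0.93, adjusted p 0.0702). Without marrow arrays 1 and 3, which leaves 1 marrow array, Ltf differed by -0.52, Slc4a1 by -0.88 and Cd163 by -1.16. In the same fit Csf1r differed by -3.56 and the B lineage gene Vpreb1 by -2.35, again sizes that do not show that the calls held. The part of mature myeloid or red cell transcripts in the other differences was not tested.

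B lineage genes fell in 10 of 24 measured cases and rose in 0 (median -0.74). Ebf1, the factor that starts the B cell programme, measured 4.03, 4.07 and 4.38 in DN2Kit+ cells, against 8.07, 7.77 and 8.37 in marrow cells (difference -3.91 ± 0.20, SE; adjusted p 2.91e-08). Bank1, a B cell scaffold, measured 2.87, 2.71 and 3.35 in DN2Kit+ cells, against 5.69, 6.22 and 5.77 in LSKFlt3hi IL7R+ cells (difference -2.91 ± 0.26, SE; adjusted p 9.56e-06). The LSKFlt3-CD48-CD150+ arrays averaged 6.13 for Bank1 and 4.63 for Ebf1, so a high Bank1 level was not particular to the lymphoid-primed gate. Vpreb1, part of the surrogate light chain, fell by 2.60, Ighm by 2.31, Cd72 by 2.14 and Cd79a by 1.89 on the log2 scale. The fall of Ighm depended on the probe set, and with the mean of its probe sets it differed by -0.60 and was not called. Pax5, the later B cell factor, was 4.96 in DN2Kit+ cells and 5.53 in marrow cells and was not called (adjusted p 0.187).

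Homing and adhesion genes fell in 5 of 21 measured cases and rose in 1. Klf2, a factor that maintains receptors for leaving tissue, measured 5.68, 5.36 and 5.30 in DN2Kit+ cells, against 9.15, 8.72 and 9.69 in marrow cells (difference -3.74 ± 0.28, SE; adjusted p 1.37e-06). Ccr9 and Ccr7, the chemokine receptors that draw progenitors into the thymus, both fell. Ccr9 measured 4.66, 4.96 and 4.64 in DN2Kit+ cells, against 7.74, 7.72 and 8.45 in marrow cells (difference -3.22 ± 0.47, SE; adjusted p 0.000722), and Ccr7 3.46, 3.49 and 3.42 in DN2Kit+ cells, against 6.28, 5.53 and 4.50 in marrow cells (difference -1.98 ± 0.37, SE; adjusted p 0.00442). The integrin chain Itgb2 fell by 1.61 on the log2 scale and Itga4 rose by 1.22. Of 15 dendritic cell and MHC class II genes 3 fell, H2-DMa by 1.87, beside Tcf4 and Ccr7, which other lists hold too. Of the 16 thymic epithelium, stroma and endothelium genes 2 rose, Epcam by 1.45 and Pdgfrb by 1.23, and 0 fell.

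Immediate early genes were lower in DN2Kit+ cells. Of 20 measured immediate early and heat shock genes 10 fell and 0 rose, with a median difference of -1.85. The mean level over the 20 was 7.30, 6.78 and 6.98 on the DN2Kit+ arrays, against 8.87, 9.28 and 9.64 on the marrow arrays. Fos measured 6.34, 3.96 and 5.84 in DN2Kit+ cells, against 11.43, 11.54 and 12.04 in marrow cells (difference -6.29 ± 0.68, SE; adjusted p 4.69e-05). Fosb measured 4.82, 3.09 and 3.21 in DN2Kit+ cells, against 9.21, 9.44 and 10.09 in marrow cells (difference -5.87 ± 0.74, SE; adjusted p 0.000204). Both are subunits of AP-1, and in both every DN2Kit+ array lay below every marrow array. Zfp36, which destabilises cytokine mRNAs, fell by 4.60, and Jun and Dusp1 fell by 2.32 and 2.64. The transcription factors Egr1 and Nr4a1 fell by 5.57 and 5.41. Outside this list Cd69, an early activation antigen, fell by 5.09 and the chemokines Ccl3 and Cxcl2 by 5.28 and 4.82 on the log2 scale. The heat shock genes Hspa8, Hsp90aa1 and Dnajb1 differed by 0.03, 0.09 and -0.07 and were not called. The LSKFlt3-CD48-CD150+ arrays, also from marrow, averaged 12.31 for Fos and 10.43 for Fosb, and the DN3 arrays, also from thymus, 4.41 and 3.81. The ETPFlt3hi arrays, from thymus too, averaged 7.96 for Fos and 4.60 for Fosb, with array 3 highest at 9.40 and 6.50. Egr1 averaged 11.55 on the LSKFlt3-CD48-CD150+ arrays and 7.17 on the DN3 arrays, where it was higher than in DN2Kit+ cells (difference 2.48, adjusted p 0.0158).

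The other genes among the 15 largest falls were Adgrl4, an adhesion receptor of endothelium and progenitors (-6.61), Il12a, an interleukin-12 subunit (-5.07), Sdc4, a heparan sulphate proteoglycan (-4.89), and Ctss, the lysosomal protease cathepsin S (-4.83). Each was called, with adjusted p of at most 3.75e-06.

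No gene of the mitosis and DNA replication lists was called. Over all genes the share called was 4.51%, at which lists of this size hold few calls. Of 23 mitosis genes 0 passed both thresholds, with a median difference of -0.13, and of 23 DNA replication genes 0, with a median of 0.27. The smallest p-values in these lists belonged to Bub1, a spindle checkpoint kinase (difference -0.53, adjusted p 0.218), and to Uhrf1, a methylation maintenance factor (difference 0.51, adjusted p 0.0543). The largest replication difference was that of Tyms, thymidylate synthase, at 7.92, 8.44 and 8.40 in DN2Kit+ cells, against 7.15, 5.98 and 6.50 in marrow cells (difference 1.71, adjusted p 0.0623), which was called higher under 5 of 22 alternatives. Unadjusted p was under 0.05 for 2 mitosis genes and 8 replication genes in limma, and the DN2Kit+ mean was the higher in 22 of 23 replication genes. The share of all genes with unadjusted p under 0.05 was not counted, so these counts and those below have no background beside them. Among G1 regulators Ccnd1, cyclin D1, fell alone of 19: 6.25, 6.24 and 6.10 in DN2Kit+ cells, against 9.81, 9.73 and 9.82 in marrow cells (difference -3.59 ± 0.19, SE; adjusted p 4.73e-08). Of 15 glycolysis genes 1 fell, the glucose transporter Slc2a1 (difference -1.37, adjusted p 0.00335). No Bcl2 family gene of 12 was called by its brightest probe set. On that probe set the survival factor Bcl2 was 11.23, 11.74 and 11.40 in DN2Kit+ cells, against 10.60, 10.54 and 10.37 in marrow cells. The difference of 0.95 (adjusted p 0.00217) missed the 2-fold threshold alone, and passed it without LSKFlt3hi IL7R+ array 1 or DN2Kit+ array 1. The 4 other Bcl2 probe sets were called higher, by 1.22, 1.84, 1.91 and 1.41, and the mean of the 5 differed by 1.47. Mcl1 differed by -0.59 (adjusted p 0.0182), and unadjusted limma p was under 0.05 for 4 of the 12. No DNA methylation or Polycomb gene of 14 was called, Tet1 being the largest difference (-0.97, adjusted p 0.0553), and unadjusted limma p was under 0.05 for 4 of the 14. The megakaryocyte and erythroid list held, beside Slc4a1, 1 called gene of 16: Car2, carbonic anhydrase 2, was 6.48, 6.74 and 6.17 in DN2Kit+ cells, against 10.98, 10.52 and 10.76 in marrow cells (difference -4.29 ± 0.17, SE; adjusted p 2.53e-09).

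**Figure D3:**
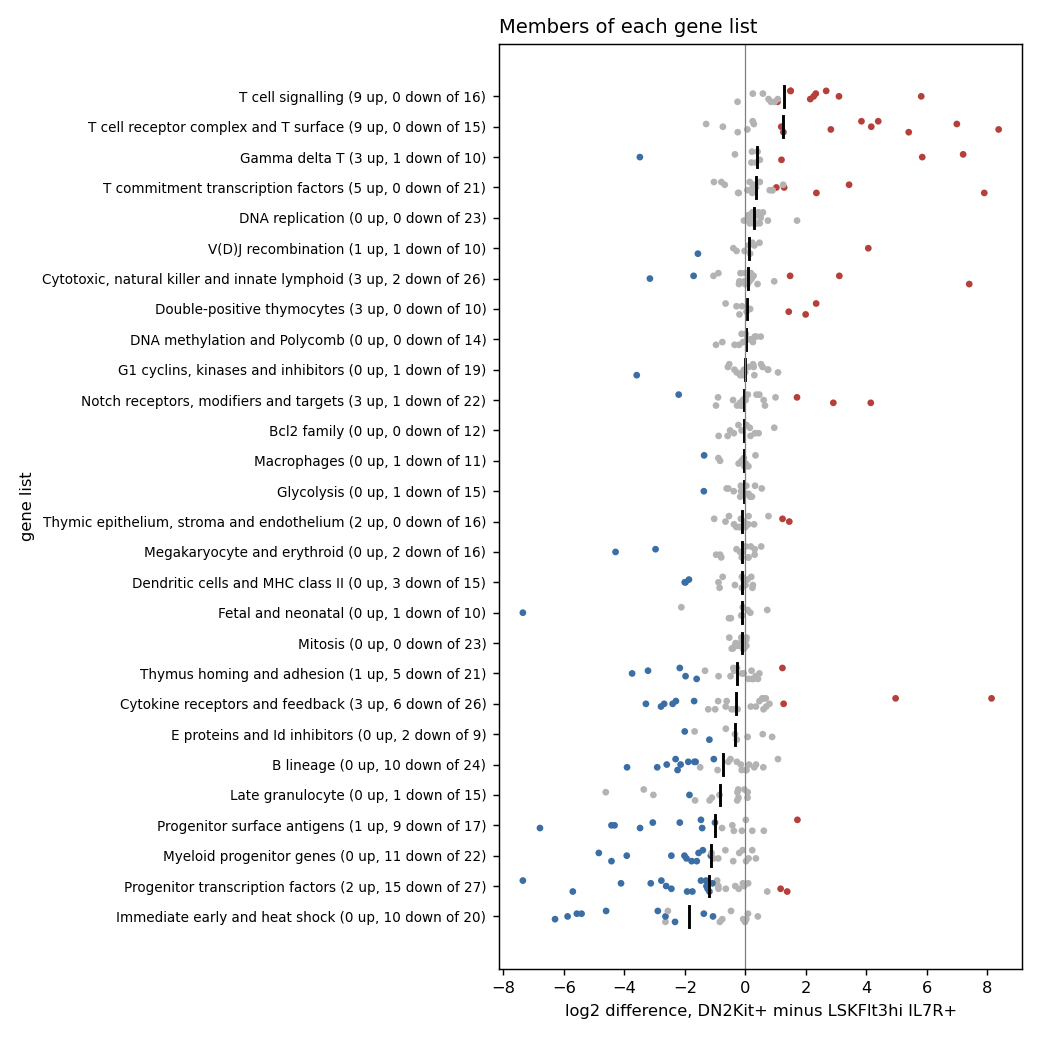
Log2 difference, DN2Kit+ minus LSKFlt3hi IL7R+, of each measured member of 28 gene lists, with the median of the list as a black bar. Red and blue points passed the test (higher and lower in DN2Kit+ cells) and grey points did not; the receptor complex and signalling lists have medians of 1.26 and 1.28, the immediate early list -1.85.

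The ETPFlt3hi arrays show between which stages a net change lay. The first step (ETPFlt3hi minus LSKFlt3hi IL7R+) had 260 called genes (1.43%) and the second (DN2Kit+ minus ETPFlt3hi) 482 (2.65%). Both use the ETPFlt3hi arrays, so their values are given side by side and were compared by a single contrast, the second step minus the first, which called 282 genes (1.55%). Without ETPFlt3hi array 1 or 2 that count was 185 or 173. For 3 T cell genes the second step was the larger: Cd3g differed by 0.36 in the first and 8.01 in the second (contrast 7.64, adjusted p 1.27e-07), Bcl11b by 0.58 and 7.32 (contrast 6.74, adjusted p 6.04e-08), and Themis by -0.45 and 6.27 (contrast 6.72, adjusted p 6.04e-08). Il2ra differed by 1.0 in the first step, just at the 2-fold threshold, and by 7.13 in the second. Its other probe set differed by 0.32 and 5.63. Thy1 rose in both steps, by 2.82 and 4.16, and its contrast did not pass (adjusted p 0.728).

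Several progenitor genes were still high in ETPFlt3hi cells and fell in the second step. Flt3 differed by -1.12 and -5.67 (contrast -4.55, adjusted p 0.000211), Car2 by -0.02 and -4.27 (contrast -4.26, adjusted p 3.68e-06), and Ccnd1 by -0.19 and -3.40 (contrast -3.20, adjusted p 0.000117). Cd34 and Ctss had second steps of -4.37 and -5.02 after 0.05 and 0.19. Other falls lay in the first step: Ebf1 differed by -3.78 and then -0.13 (contrast 3.65, adjusted p 5.22e-05), and Sdc4 by -4.43 and then -0.45 (contrast 3.98, adjusted p 0.00876). Fosb and Cxcl2 had first steps of -4.97 and -4.76 and second steps of -0.90 and -0.06, but their contrasts did not pass (adjusted p 0.238 and 0.183). Neither did that of the B lineage gene Bank1, with steps of -1.05 and -1.87 (adjusted p 0.705).

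Some genes had their highest or lowest mean at ETPFlt3hi. Ccr9 averaged 7.97 in LSKFlt3hi IL7R+, 9.26 in ETPFlt3hi and 4.75 in DN2Kit+ cells (contrast -5.81, adjusted p 0.00182). Csf1r averaged 7.60, 9.18 and 3.17 in the same order (contrast -7.58, adjusted p 0.0111). For both genes the first step alone was not called (adjusted p 0.3 and 0.528). Fasl, near the floor in marrow at 3.49, averaged 8.56 in ETPFlt3hi and 6.60 in DN2Kit+ cells (contrast -7.04, adjusted p 1.11e-05). Rag1 averaged 9.48, 6.17 and 9.64 in that order, so its net difference of 0.16 joins a first step of -3.31 and a second of 3.47 (contrast 6.77, adjusted p 3.2e-07). Il7r did likewise, with steps of -1.25 and 1.84 (contrast 3.09, adjusted p 0.000199), and Dntt with -2.46 and 0.89 (contrast 3.34, adjusted p 0.0135), of which the second was not called (adjusted p 0.321). Bcl2 averaged 10.50, 9.79 and 11.46 (contrast 2.39, adjusted p 0.00033).

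**Figure D4:**
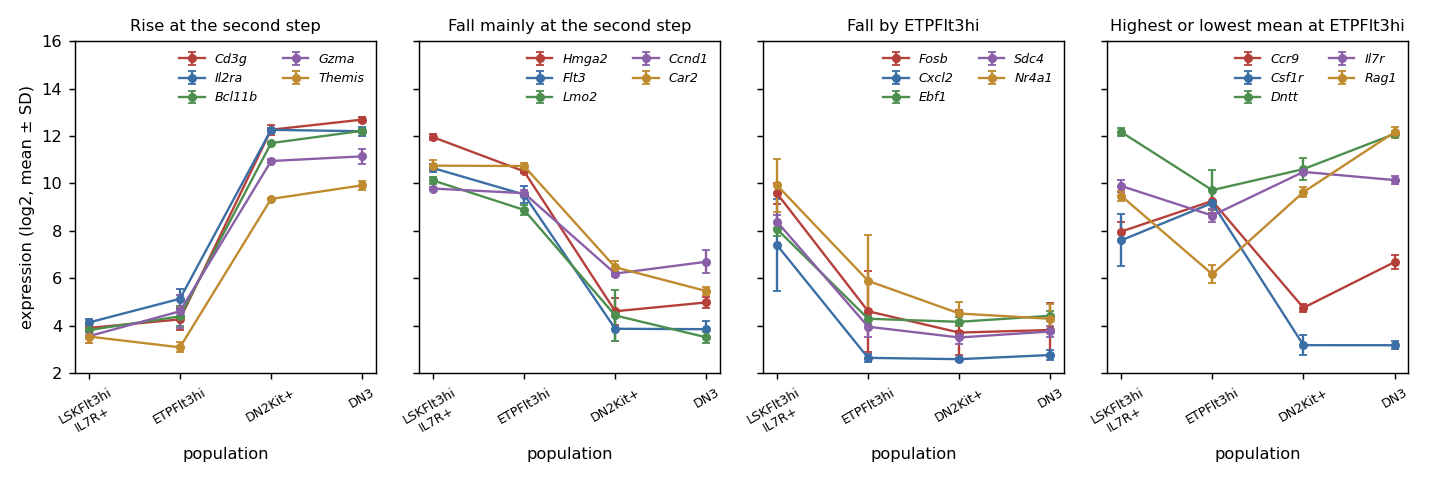
Mean log2 level with SD over 3 arrays of LSKFlt3hi IL7R+, ETPFlt3hi, DN2Kit+ and DN3 cells for 20 genes in 4 panels. Cd3g, Il2ra and Bcl11b climb between ETPFlt3hi and DN2Kit+, Hmga2 and Flt3 drop there, Ebf1 and Sdc4 drop before ETPFlt3hi, and Ccr9, Csf1r, Dntt, Il7r and Rag1 have their highest or lowest mean at ETPFlt3hi.

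Of the 821 called genes 477 have several probe sets, and in 141 of these all probe sets were called. Tsc22d1, a leucine zipper regulator, was the 1 gene with probe sets called in both directions; it was chosen for description after its values were seen. Of its 7 probe sets 3 were lower in DN2Kit+ cells, by 1.39, 1.81 and 2.18 on the log2 scale, and 2 were higher, by 2.88 and 3.07. The brightest, which stands for the gene in the counts, measured 10.76, 10.75 and 10.80 in DN2Kit+ cells, against 12.04, 12.20 and 12.23 in marrow cells. The probe set with the largest rise measured 7.88, 8.06 and 8.35 in DN2Kit+ cells, against 6.13, 4.25 and 4.72 in marrow cells. RefSeq lists 5 start sites for the gene, and the files do not say which transcript each probe set detects.

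**Figure D5:**
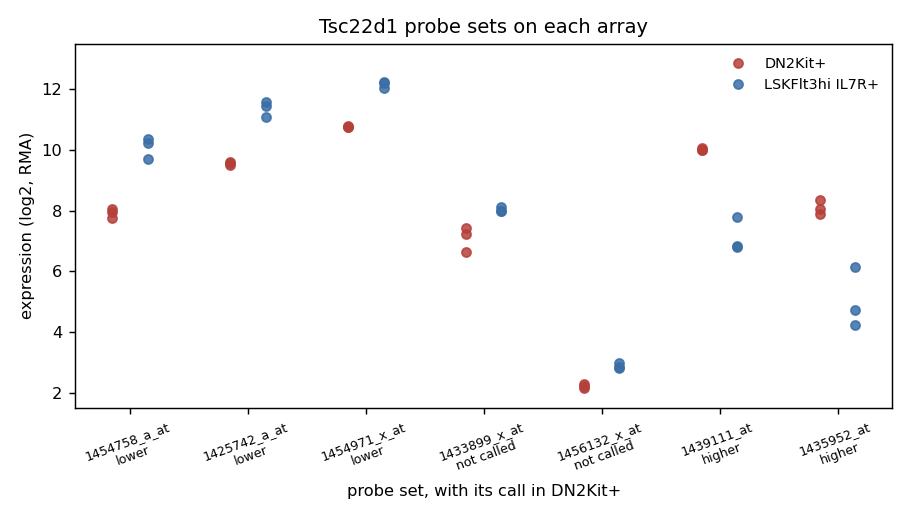
Log2 level of the 7 Tsc22d1 probe sets on 3 DN2Kit+ arrays (red, left) and 3 LSKFlt3hi IL7R+ arrays (blue, right), ordered by their difference. The 3 on the left fell, the 2 on the right rose and the 2 between were not called.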

How the data were processed

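Total RNA was extracted with Trizol and amplified with the Nugen WT-Ovation Pico kit before biotin labelling, per the labels' protocols. The deposited values are RMA-normalized, per the submitters' processing notes, and were read as log2 from their range, since the log base is not given in the sources used here. The 15 arrays of the first label set (medians 5.12 to 5.22) were kept apart from the other 21 (5.84 to 5.95). Of 45101 probe sets 34945 name 1 gene in the platform annotation. For 204 of these probe sets the gene identifier had no match in RefSeq's current table, and the annotation's name was kept. The brightest probe set stood for each of 18193 genes. limma 3.58.1 in R 4.3.3 was fitted to the 34945 probe sets on the 15 arrays with a term for population, so 5 populations shared the estimate of the spread, with Benjamini-Hochberg adjustment over all probe sets. Calls needed an adjusted p under 0.05 and a 2-fold difference. The fit was checked on simulated data. The number of arrays limits the precision.

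Named genes are the 15 largest rises and 15 largest falls without overlap between the populations, from every list the 2 calls of greatest size (where none passed, the 2 of smallest p), the sorting antigens and 4 markers. Other list members are examples of a count. The members and lists were chosen with earlier results of these data known. Alternatives changed the arrays, the probe-set summary, the scaling, the filter, the thresholds and the weighting. Figures were drawn with matplotlib 3.10.9.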

Additional observations from a re-analysis of the deposited data

Results flagged for a closer look

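Probe sets without a single gene name were outside the comparison and still held differences. Among 932 probe sets that name several genes 36 passed both thresholds (3.86%), 14 of them higher and 22 lower in DN2Kit+ cells. Among 9160 probe sets listed with no gene 342 passed (3.73%), 205 higher and 137 lower. Both shares compare with 4.32% of the probe sets that name 1 gene.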

How the results depend on the processing

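Of the 56 called genes among the 65 named by rule, 44 had a value under all 22 alternatives and 39 of these kept the call in each. The filter on low values removed the other 12, of which 8 kept the call in the remaining 21 alternatives. No called gene reversed. The 821 calls numbered 669 to 816 when 1 DN2Kit+, LSKFlt3hi IL7R+ or ETPFlt3hi array was left out (higher 286 to 368, lower 383 to 455), and calls among list members 108 to 121. Without a fold threshold there were 1210 calls, 555 of them higher. A test against 1.5-fold left 414 (164 higher, 250 lower). The contrast of the 2 steps, 282 calls in the main setting, gave 535 over all 36 arrays (266 more positive and 269 more negative in the second step), 151 against 1.5-fold (77 and 74) and 427 with array weights (211 and 216). With 1 array left out it gave 173 to 268 (88 to 138 more positive, 85 to 130 more negative), fewest without ETPFlt3hi array 2. The causes were not tested. An alternative chosen after seeing the data left out LSKFlt3hi IL7R+ arrays 1 and 3 and gave 633 calls, 501 of them among the 821; the lone marrow array is then assumed to vary like the other groups.

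The labels do not say whether equal replicate numbers share a sort or day. Deviations of same-numbered DN2Kit+ and LSKFlt3hi IL7R+ arrays, over all fitted probe sets, correlated at -0.03 to -0.01. Other pairs of populations and single genes were not compared in this way. With the number as a replicate block there were 819 calls (353 higher, 466 lower) and 268 for the contrast of the steps. Among called list members Prom1 (adjusted p 0.0674) and Slc4a1 (adjusted p 0.0574) lost the call. Atf3, not called in the main setting, gained a call (-2.64, adjusted p 0.0294), as it did under other alternatives, among them array weights (adjusted p 0.0185). The median of all genes moved by at most 0.0184 under any setting. Genes near the bottom of the range may be below detection, for which the values give no flag.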

Other observations

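A few genes, chosen after their values were seen, were high in DN2Kit+ cells and low at the stages on either side. Cldn2, a tight junction claudin, measured 8.13, 8.20 and 8.37 in DN2Kit+ cells, against 3.35, 3.44 and 3.18 in LSKFlt3hi IL7R+ cells (difference 4.91 ± 0.17, SE), and averaged 3.92 in ETPFlt3hi and 3.40 in DN3 cells. Fgf3, a fibroblast growth factor, measured 8.08, 7.44 and 7.99 in DN2Kit+ cells, against 4.09, 4.25 and 4.04 in LSKFlt3hi IL7R+ cells, with 4.26 in ETPFlt3hi and 4.45 in DN3 cells. Bpifc measured 7.60, 7.65 and 7.83 in DN2Kit+ cells, against 3.23, 3.90 and 3.63 in LSKFlt3hi IL7R+ cells, with 5.40 in ETPFlt3hi and 4.02 in DN3 cells.

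Single genes outside the lists, also chosen after their values were seen and not standing for their families, were called too. The tubulins Tubb3 and Tubb2b rose by 4.74 and 4.37. The interferon-inducible GTPase gene Gbp8 rose by 4.62, and its relative Gbp6 by 2.73. Spry1 and Spry2, inhibitors of receptor tyrosine kinase signals, fell by 3.34 and 3.72 on the log2 scale. The probe set for Trbv1, a T cell receptor beta segment, measured 12.73, 12.78 and 12.80 in DN2Kit+ cells. It read 8.90, 8.83 and 9.56 in LSKFlt3hi IL7R+ cells and averaged 12.24 in ETPFlt3hi cells. Whether this probe set detects that segment alone was not tested.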
